A study of Mus musculus with 2 samples.

Results

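The genes described here belong to the cell cycle and to DNA replication, and there are 40 of them among 55536 annotated genes. They were taken by symbol from a list of genes of these roles. By role, 13 act in replication and S phase, 14 in mitosis, 8 are D-type cyclins, E-type cyclins and their kinases, and 5 encode inhibitors of these kinases or the regulators E2F1 and RB1. They were measured in macrophages that had been grown from the bone marrow of C57BL/6J mice and given Lipid A, the part of bacterial lipopolysaccharide that the receptor TLR4 binds, at 100 ng/ml for 30 min. RNA of the nucleoplasm was depleted of ribosomal RNA and sequenced. The labels name the fraction as nucleoplasmic in one place and as nuclear in another. There was 1 group with 2 libraries, called biological replicates 1 and 2, which were made from 1000 ng and 500 ng of RNA and cite 1 donor entry but different biosamples. Sex and age were not collected, and no untreated sample was analysed here. Nothing else shows whether the libraries come from separate cultures. Their spread can thus be technical, and every ratio below compares 2 libraries and not 2 conditions. No p-value could be given.

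A cell that divides licenses its replication origins with the MCM helicase, copies its DNA around the clamp PCNA, and then uses cyclin B, CDK1 and the mitotic kinases to separate its chromosomes. Entry into this cycle is set by D-type cyclins with CDK4 or CDK6, which phosphorylate RB1 and so free E2F factors, and it is held back by inhibitors such as p21 (Cdkn1a) and p27 (Cdkn1b). Bone marrow-derived macrophages divide in response to the growth factor CSF1, and bacterial products are known to slow that division. Nuclear RNA holds transcripts that are still being made or spliced, so levels in this fraction need not match those of the cytoplasm.

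The gene tables held 16037242 expected counts in replicate 1 and 14906686 in replicate 2. The 2 libraries differed by a biological coefficient of variation of 0.302 over 14470 genes. All 8 macrophage markers were detected, with a summed level of 2808 TPM in replicate 1 and 3537 TPM in replicate 2. Without Lyz2, which was beyond 2-fold higher in replicate 2, the other 7 summed to 1343 and 1243 TPM. Of 7 myeloid progenitor markers 0 were detected (summed 1.90 and 1.63 TPM). The highest of them, Kit, had 1.06 TPM in replicate 1 and 0.76 TPM in replicate 2, on 74 and 69 reads, and the lowest, Cd34 and Elane, had 0 reads in replicate 1 and 1 read each in replicate 2. Of 7 neutrophil markers 2 were detected (summed 4.58 and 8.72 TPM). Of the 5 markers each of B cells, T cells, erythroid cells and fibroblasts 0 were detected, and no such list summed to more than 0.41 TPM. In RNA of many cells, fewer cells of a type and less RNA per cell cannot be told apart.

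Most of these genes were low, and the highest by far was the inhibitor gene Cdkn1a. A gene was called detected at 1 TPM (a level per transcript length, scaled to the total of its library) or more in both libraries. Of the 40 genes, 24 were detected, which is 60% against 42.4% of 22028 protein-coding genes. A further 5 reached 1 TPM in 1 library, and 11 in neither. The median of the mean level over all 40 was 1.79 TPM. It was 0.425 TPM over all protein-coding genes and 8.61 TPM over those detected. A mean of 10 TPM or more was reached by 8 of the 40 genes, 20% against 19.3% of protein-coding genes, so the share of highly expressed genes was near the background. In order these were Cdkn1a, Cenpa, Cdk6, Rb1, Mki67, Pcna, Cdk4 and Cdkn1b.

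The reads were concentrated in a few genes. The 40 genes together took 30051 reads in replicate 1, which is 0.1896% of the annotated reads (95% Wilson interval 0.1875 to 0.1918), and 28327 reads in replicate 2, or 0.1904% (0.1882 to 0.1927). Cdkn1a, Mki67, Cdk6, Cenpa and Rb1 alone held 26309 reads in replicate 1 and 23162 in replicate 2, or 87.5% and 81.8% of that total. The other 35 genes shared 3742 and 5165 reads. Such intervals, and the limits set by 0 reads, take in counting error alone, because several reads may stem from 1 molecule.

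**Figure D1:**
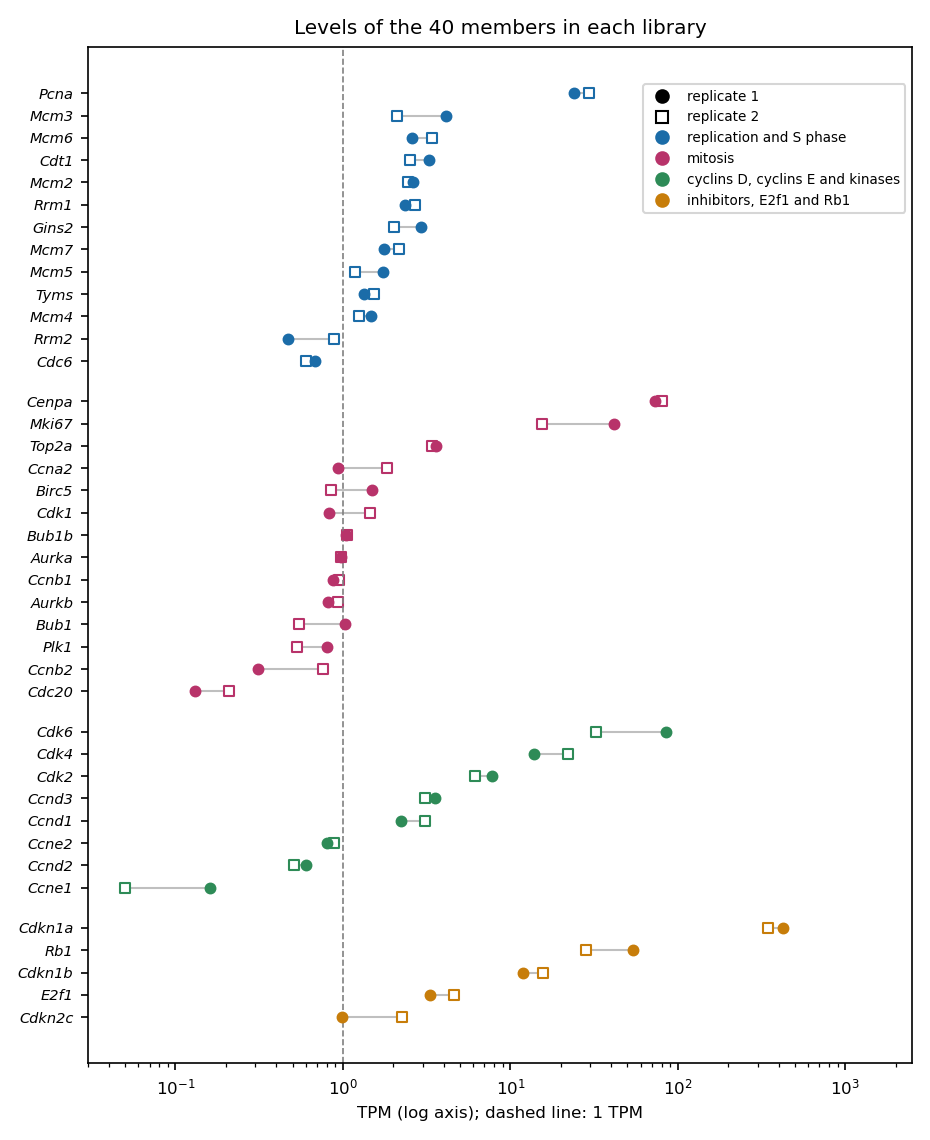
Level of each of the 40 genes in TPM (log axis), grouped by role; filled circles are replicate 1 and open squares replicate 2, and the dashed line marks 1 TPM. Cdkn1a stands alone above 300 TPM in both libraries, whereas 12 of the 14 mitotic genes lie below 4 TPM in both.

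Replication and S-phase genes were mostly present at low levels. Of 13, 11 were detected, which is 84.6% against 42.4% of protein-coding genes. The median of the 13 was 2.48 TPM (2.35 TPM in replicate 1 and 2.10 TPM in replicate 2). Pcna, the sliding clamp of the replication fork (chromosome 2, 132249162 to 132253314, mm10), stood far above the rest, with 24.0 TPM in replicate 1 and 29.5 TPM in replicate 2 (26.7 ± 3.90, SD, n = 2). It was followed at a distance by Mcm3, at 3.10 ± 1.41 TPM.

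The 6 subunits of the MCM2-7 helicase, which unwinds DNA at the fork, were all detected and lay within a narrow band of mean levels, 1.36 to 3.10 TPM with a median of 2.24 TPM. Mcm3 had 4.10 TPM in replicate 1 and 2.10 TPM in replicate 2, and Mcm6 had 2.60 and 3.38 TPM. Mcm2 had 2.61 TPM in replicate 1 and 2.46 TPM in replicate 2, Mcm7 had 1.76 and 2.15 TPM, and Mcm5 had 1.74 and 1.18 TPM. Mcm4, the lowest, had 1.48 TPM in replicate 1 and 1.25 TPM in replicate 2. By TPM, 4 of the 6 subunits were higher in replicate 1, whereas by TMM-scaled reads 2 of the 6 were. The whole band of means is narrower than the gap between the libraries for Mcm3, so the order of the subunits is not settled here. In reads the 6 genes held 593 in replicate 1 and 726 in replicate 2.

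The loading and fork factors were of the same size. Cdt1, which brings the MCM ring to origins, had 3.27 TPM in replicate 1 and 2.53 TPM in replicate 2, and Gins2, a subunit of the GINS complex of the active helicase, had 2.92 and 2.03 TPM. Cdc6, the ATPase that loads MCM together with CDT1, was not detected, with 0.68 TPM in replicate 1 and 0.60 TPM in replicate 2. Rrm1 and Rrm2 encode the large and the small subunit of ribonucleotide reductase, which makes the DNA precursors. Rrm1 had 2.35 TPM in replicate 1 and 2.69 TPM in replicate 2. Rrm2 had 0.47 TPM in replicate 1 and 0.89 TPM in replicate 2, on 10 and 22 reads, so the subunit whose supply is known to follow S phase was below 1 TPM in both libraries. Tyms, the thymidylate synthase, had 1.34 and 1.54 TPM; its counts depended strongly on the table used, as given further on.

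Mitotic genes were mostly near 1 TPM. Of 14, 4 were detected (Cenpa, Mki67, Top2a and Bub1b), which is 28.6% against 42.4% of protein-coding genes, and the median was 1.02 TPM. Ccna2, Cdk1, Bub1 and Birc5 reached 1 TPM in 1 library, and the other 6 in neither. Cenpa and Mki67 stood apart from the others by their level. Without them the median of the other 12 was 0.945 TPM, the highest of the 12 was Top2a, and 2 of the 12 were detected. All 12 lay below 4 TPM in both libraries.

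Cenpa, which encodes the histone H3 variant of centromeres (chromosome 5, 30666777 to 30674830), had 73.1 TPM in replicate 1 and 80.1 TPM in replicate 2, on 2237 and 3621 reads. Most of these reads were not assigned to its coding transcripts, as described with the transcript classes below. Mki67, which encodes the chromosome surface protein Ki-67 (chromosome 7, 135689784 to 135716361), had 41.4 TPM in replicate 1 and 15.5 TPM in replicate 2, on 6889 and 2923 reads. Both genes had more than 2000 reads in each library, and their TPM differed more between the libraries for Mki67 than for Cenpa. Top2a, the topoisomerase that untangles sister DNA, had 3.60 and 3.41 TPM, and its 2 libraries were close to each other.

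The cyclins and kinases that carry a cell through mitosis were at or near 1 TPM in the gene tables. Cdk1, the mitotic kinase, had 0.82 TPM in replicate 1 and 1.45 TPM in replicate 2, on 16 and 50 reads. In the second transcript tables, described further on, Cdk1 had 3.43 and 2.64 TPM, which passes the limit. Of its partners, Ccna2 had 0.94 TPM in replicate 1 and 1.84 TPM in replicate 2, and Ccnb2 had 0.31 and 0.76 TPM. Ccnb1 had 0.87 and 0.95 TPM. All 3 cyclins were higher in replicate 2 by TPM. In scaled reads Ccnb1 had a log2 ratio of -0.65 (95% counting interval -1.74 to 0.39) and Ccna2 one of -0.53 (-1.17 to 0.09). The counts of these 2 do not separate the libraries. Ccnb2 had a ratio of -1.65 (-3.13 to -0.36), on 7 reads in replicate 1 and 21 in replicate 2. Aurka, the spindle pole kinase, had 0.98 TPM in both libraries, and Aurkb, the kinase of the chromosomal passenger complex, had 0.81 TPM in replicate 1 and 0.94 TPM in replicate 2. Plk1, a kinase of mitotic entry and exit, had 0.80 and 0.53 TPM. Birc5, the passenger protein survivin, had 1.5 TPM in replicate 1 and 0.85 TPM in replicate 2. Of the spindle checkpoint genes, Bub1 had 1.03 TPM in replicate 1 and 0.55 TPM in replicate 2, and Bub1b had 1.05 and 1.06 TPM. Cdc20, the activator of the anaphase-promoting complex, was the lowest mitotic gene, with 2 reads in replicate 1 and 7 in replicate 2 (0.13 and 0.21 TPM). Its ratio on the log2 scale was -1.87 with a 95% counting interval of -5.17 to 0.52, so these counts do not separate the libraries.

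The promoters of mitotic and of replication genes mostly shared CCAAT, and matches to TTTGAA and TTTNNCGC were spread unequally over them. RefSeq promoter windows (GRCm38.p6, 250 bases before to 50 after a start) matched 32 of the 40 genes with 36 windows. Each was searched on both strands for CCAAT, the box bound by NF-Y, for TTTGAA, a form of the CHR element of late cell cycle genes, and for TTTNNCGC, a core of E2F sites. TTTGAA was in 9 of 12 mitotic windows (75%), in 1 of 12 replication windows and in 0 of 6 windows each of the other 2 roles, against 17.9% of 32851 windows of all genes. TTTNNCGC was in 7 of 12 replication windows (58.3%) and 1 of 12 mitotic ones, against 5.17% of all windows. It was also in 2 of 6 windows of cyclins and kinases (33.3%), and in 0 of 6 of inhibitors, E2f1 and Rb1. CCAAT was in 11 of 12 mitotic and 9 of 12 replication windows, against 37.4% of all windows, and in 2 of 6 windows of cyclins and kinases and 2 of 6 of inhibitors, E2f1 and Rb1, which is near that background. TATAAA was in 1 of the 36 windows, that of Cdk6, against 13.6% of all windows. A match is a description of letters and not a site, and a window without one says only that the letters are not in it.

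The first mitotic sequences are the 250 bases before the start of Mki67 (chr7:135716380-135716629, minus strand) and Top2a (chr11:99024190-99024439, minus strand), which were the highest mitotic genes among those whose window holds at most 30 bases of annotated exon. After them come Ccnb2 (chr9:70421555-70421804, minus strand) and Cdc20 (chr4:118437344-118437593, minus strand), the lowest. All 4 are printed 5′ to 3′ from RefSeq, with capitals for the letters of CCAAT and for those of TTTGAA, on either strand (in reverse complement ATTGG and TTCAAA).
Mki67: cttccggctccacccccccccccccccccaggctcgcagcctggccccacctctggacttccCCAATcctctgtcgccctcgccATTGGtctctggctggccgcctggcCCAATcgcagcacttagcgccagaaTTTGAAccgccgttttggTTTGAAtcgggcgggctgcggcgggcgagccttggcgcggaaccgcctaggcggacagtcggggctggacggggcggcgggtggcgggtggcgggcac
Top2a: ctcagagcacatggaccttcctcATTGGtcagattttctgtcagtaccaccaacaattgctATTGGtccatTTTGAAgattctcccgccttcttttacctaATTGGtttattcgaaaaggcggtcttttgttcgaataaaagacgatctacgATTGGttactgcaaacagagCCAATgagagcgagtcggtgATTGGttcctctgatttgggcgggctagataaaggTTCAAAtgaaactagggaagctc
Ccnb2: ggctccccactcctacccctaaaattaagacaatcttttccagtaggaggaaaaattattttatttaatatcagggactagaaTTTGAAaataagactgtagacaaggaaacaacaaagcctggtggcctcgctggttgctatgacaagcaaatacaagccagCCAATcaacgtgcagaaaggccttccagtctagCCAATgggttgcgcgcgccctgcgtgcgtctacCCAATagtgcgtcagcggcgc
Cdc20: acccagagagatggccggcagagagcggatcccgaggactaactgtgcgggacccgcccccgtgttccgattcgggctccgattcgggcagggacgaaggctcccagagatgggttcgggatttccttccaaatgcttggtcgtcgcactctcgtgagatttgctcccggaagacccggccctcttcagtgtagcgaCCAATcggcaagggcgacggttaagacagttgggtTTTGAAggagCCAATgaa

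Genes of very different level carried the same letters. Mki67 has CCAAT or its complement 183, 161 and 136 bases before the start, and TTTGAA 110 and 92 bases before it. Cdc20, whose mean level was 0.170 TPM, has TTTGAA 12 bases and CCAAT 48 and 3 bases before the start. Top2a holds 6 matches to CCAAT and 2 to TTTGAA, and Ccnb2 holds 3 to CCAAT and 1 to TTTGAA in the part shown. Distances count the bases between a match and the start. The Cenpa window also holds CCAAT and TTTGAA; it is not printed because 109 of its 250 bases are annotated exon.

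Mcm3 (chr1:20820313-20820562, minus strand) and Mcm6 (chr1:128359706-128359955, minus strand) show the replication windows on the same terms, with capitals for CCAAT, TTTNNCGC or their reverse complements. They were the 2 highest replication genes whose window holds at most 30 exonic bases.
Mcm3: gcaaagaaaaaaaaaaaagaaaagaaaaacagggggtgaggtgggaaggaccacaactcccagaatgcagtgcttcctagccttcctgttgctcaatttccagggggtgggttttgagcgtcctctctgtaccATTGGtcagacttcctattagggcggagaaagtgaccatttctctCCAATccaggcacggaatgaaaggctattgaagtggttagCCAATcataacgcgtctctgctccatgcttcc
Mcm6: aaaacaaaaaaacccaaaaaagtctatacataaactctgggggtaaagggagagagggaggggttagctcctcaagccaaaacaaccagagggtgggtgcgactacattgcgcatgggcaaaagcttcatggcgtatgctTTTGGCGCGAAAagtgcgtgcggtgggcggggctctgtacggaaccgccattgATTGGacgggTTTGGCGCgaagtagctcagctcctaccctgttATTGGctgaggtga

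Mcm6 has TTTGGCGC 102 and 39 bases before the start, and GCGCGAAA, its letters on the other strand, 98 bases before it. The first of these shares bases with the match on the other strand, and they are printed as 1 run. Mcm3 has CCAAT or its complement 112, 67 and 27 bases before the start, and its 2 matches to TTTNNCGC lie in the 50 bases after the start, which are not shown. Neither window has TTTGAA.

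Kinases of the restriction point were higher than their cyclins. Of 8 genes in this role, 5 passed the limit (62.5%, against 42.4% of protein-coding genes), and the median was 2.99 TPM. The 3 kinases had the 3 highest levels, and the 5 cyclins lay at 3.34 TPM or below. Cdk6, a partner of D-type cyclins (chromosome 5, 3341485 to 3531008), had 84.9 TPM in replicate 1 and 32.3 TPM in replicate 2. Cdk4, its close relative, had 13.9 TPM in replicate 1 and 22.2 TPM in replicate 2. Cdk2, the partner of E-type and A-type cyclins, had 7.80 and 6.11 TPM. The order of Cdk6 above Cdk4 above Cdk2 held in both libraries.

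Among the cyclins, Ccnd3 had 3.57 TPM in replicate 1 and 3.10 TPM in replicate 2, and Ccnd1 had 2.23 and 3.07 TPM. These neighbours did not differ beyond the spread of Ccnd1 between the libraries. Ccnd2 had 0.60 TPM in replicate 1 and 0.51 TPM in replicate 2. The E-type cyclins, which act with CDK2 at the start of S phase, were not detected in the gene tables. Ccne2 had 0.80 and 0.89 TPM, and Ccne1 had 0.16 and 0.05 TPM on 5 and 2 reads. This depends on the table. In the second transcript tables, described further on, Ccne2 had 1.05 TPM in replicate 1 and 1.06 TPM in replicate 2, which passes the limit. Ccne1 had 1.29 and 0.74 TPM there, on 29.1 and 27.1 estimated counts. The log2 ratio of Ccne1 was 1.26 with a counting interval of -1.35 to 4.65.

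The inhibitors with E2f1 and Rb1 had the highest median of the 4 roles. Their median was 13.7 TPM, and 4 of the 5 were detected (80%, against 42.4% of protein-coding genes). Cdkn1a, which encodes the CDK inhibitor p21 (chromosome 17, 29090976 to 29100727), had 422 TPM in replicate 1 and 344 TPM in replicate 2 (383 ± 55.2, SD, n = 2), on 10579.7 and 11213.96 reads. It ranked 70 among 22028 protein-coding genes by mean level, with 99.7% of them below it. The next gene of all 40, Cenpa, had a mean of 76.6 TPM. Rb1, the retinoblastoma gene (chromosome 14, 73183673 to 73325822), had 54.3 TPM in replicate 1 and 28.2 TPM in replicate 2. Cdkn1b, which encodes the inhibitor p27, had 11.9 and 15.6 TPM, and E2f1, the factor that RB1 holds, had 3.30 and 4.62 TPM. Cdkn2c, which encodes the CDK4 and CDK6 inhibitor p18, had 0.99 TPM in replicate 1 and 2.26 TPM in replicate 2. Cdkn1a was thus above every other gene of the 40 in each library, and the ranges of Rb1 and Cdkn1b did not overlap.

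Cdkn1a is the textbook target of p53, and its first RefSeq window is shown for that reason (250 bases before the start, chr17:29090729-29090978, plus strand). Capitals mark the letters CATG, any 6 bases and CATG again, a form found within p53 response elements, which end 34 bases before that start.
Cdkn1a: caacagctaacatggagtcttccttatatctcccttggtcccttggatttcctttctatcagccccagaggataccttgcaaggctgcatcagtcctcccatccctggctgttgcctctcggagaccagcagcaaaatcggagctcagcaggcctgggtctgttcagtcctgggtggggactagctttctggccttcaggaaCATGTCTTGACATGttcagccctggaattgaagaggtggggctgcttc

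These letters were searched for after the window had been read, so the match describes a sequence chosen for it. They occur in 1 of the 36 windows and in 0.712% of all windows. This start, base 29090979, is that of Cdkn1a-202, a transcript with 0 reads in replicate 1 and 1.88 in replicate 2. The noncoding Cdkn1a-204 starts beside it at base 29090976 and had 36 reads in replicate 1 and 17 in replicate 2. The transcript with most reads, Cdkn1a-201, starts downstream at base 29093769 and had 8553.77 reads in replicate 1 and 8251.26 in replicate 2. The window at that start holds 0 matches to these letters. Cdkn1a-203 had 1970.85 and 1509.45 reads. Cdkn1a-205, which starts at base 29093781, close to Cdkn1a-201, had 19.1 reads in replicate 1 and 1434.37 in replicate 2, but 964 and 2274 estimated counts in the second transcript tables, so the split between these 2 near-identical starts depends on the table. The reads of the gene as a whole lay on coding transcripts, 99.7% and 99.8% of them.

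The ratio of the libraries shows how closely the count of each gene repeated between them. A ratio near 0 does not make a level firm, as Birc5 and Cdk6 show further on. Expected counts were rounded and scaled by TMM, and the ratio is given as replicate 1 over replicate 2 on the log2 scale. Of the 24 genes at a mean of 50 counts or more, 1 was more than 2-fold higher in replicate 1 with deposited bounds that, scaled alike, did not overlap (4.17%), against 3.62% of 10444 genes at that depth. More than 2-fold higher in replicate 2 were 2 of the 24 (8.33%), against 4.76%. These counts are near the background and say nothing particular about cell cycle genes.

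The gene on the first side was Mki67, at a log2 ratio of 1.17 (95% counting interval 1.11 to 1.23), or 2.25-fold. A ratio as high was seen in 2.36% of the 10444 genes, whose 5th and 95th percentiles were -1.01 and 0.91. It was 1.15 by library size, 1.14 with DESeq2 size factors, 1.41 by TPM (0.98 above the median of all genes) and 1.04 in the second transcript tables, so it was higher in replicate 1 under each of these scalings. Cenpa, the mitotic gene nearest to it in reads, lay on the other side, at -0.76 (-0.84 to -0.68). The genes on the second side were Mcm7 at -1.05 (-1.64 to -0.47) and Cdkn2c at -1.13 (-1.77 to -0.51), each on fewer than 100 reads per library. By TPM Mcm7 stood at -0.29, not beyond 2-fold, and Cdkn2c at -1.19. In the second transcript tables they stood at -1.17 and -1.29.

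Replication and mitotic genes lay on both sides of 0, most of them on the side of replicate 2. Pcna stood at -0.71 (-0.89 to -0.53), on 429 reads in replicate 1 and 671 in replicate 2. Top2a stood at -0.48 (-0.77 to -0.19), on 176 and 234 reads. Cdk1 stood at -1.71 (-2.62 to -0.87) on the few reads given above, and its ratio in the second transcript tables was -0.002. On the side of Mki67 lay Mcm3 at 0.29, Gins2 at 0.07 and Mcm5 at 0.04 and, under 50 counts, Plk1 at 0.23 and Birc5 at 0.03. The median ratio was -0.35 over the 10 replication genes at this depth and -0.40 over the 4 mitotic ones, of which Mki67 is the only one above 0. Of all 24 genes, 18 were higher in replicate 2 (75%), against 47.6% of genes in general. The ratio of all genes moved with depth, with a median of -0.16 in the lowest of 12 depth bins and 0.28 in the highest, and 18 of the 24 lay below the median of their own bin. The wider lists described further on were divided at this depth. The 46 other genes of replication and S-phase repair leaned the other way, with 19 higher in replicate 1 and 10 in replicate 2 (median 0.14). The 38 other genes of mitosis and cytokinesis leaned to replicate 2, with 4 higher in replicate 1 and 15 in replicate 2 (median -0.198). So did the 17 other cyclins, kinases and inhibitors, with 4 and 7 (median -0.284). The 16 other E2F, pocket protein and DREAM complex genes had 6 and 7 (median -0.065). The count of 18 also depends on the scale. By TPM, where the median of all genes was 0.44, 11 of the 24 were higher in replicate 2 (45.8%), against 24.4% of all genes, and 18 of the 24 lay below the median of all genes. The replicates also differ in their starting RNA, and whether this bears on the ratios was not tested.

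The regulators spread over both sides of 0. Rb1 stood at 0.63 (0.54 to 0.72), with 2745 reads in replicate 1 and 1698.37 in replicate 2. Cdkn1a stood at -0.15 (-0.19 to -0.11), and Cdk6 at -0.01 (-0.07 to 0.06). Cdkn1b stood at -0.75 (-0.88 to -0.61), Ccnd1 at -0.91 (-1.23 to -0.59) and E2f1 at -0.85 (-1.16 to -0.55). Cdk2, at 0.05 (-0.18 to 0.28), and Cdk4, at -0.36 (-0.56 to -0.15), were closer to level.

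**Figure D2:**
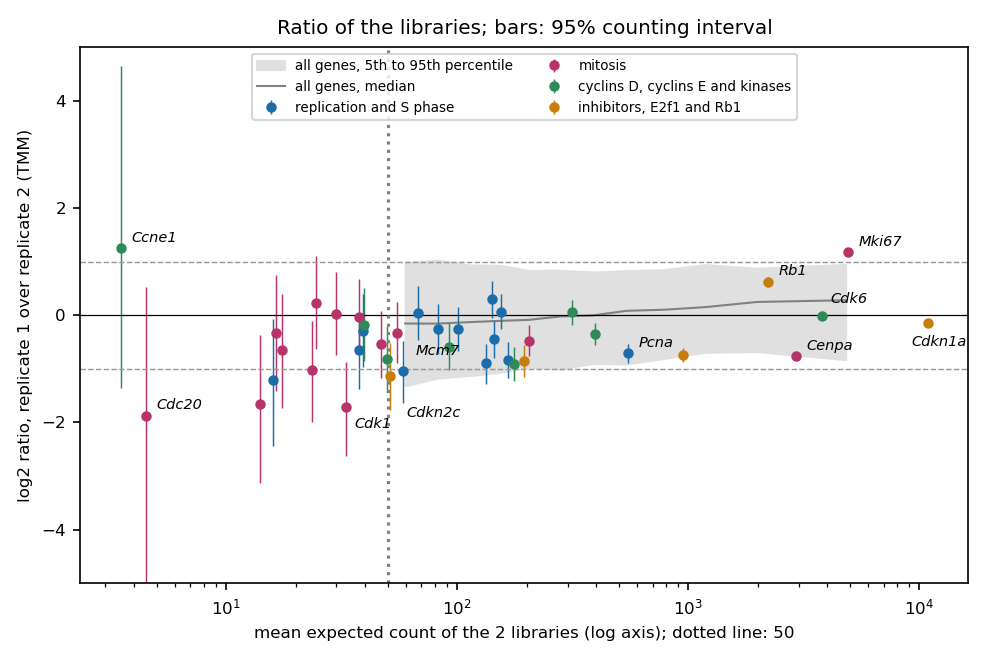
Log2 ratio of replicate 1 over replicate 2 (TMM) against the mean expected count (log axis) for each of the 40 genes, with 95% counting intervals (that of Cdc20 runs off the axis). The grey band is the 5th to 95th percentile of all genes in 12 bins from a mean of 50 counts up, the grey line their median, and dashed lines mark 2-fold. Mki67, at 1.17, lies above the band, while Cenpa, at -0.76, lies at its lower edge.

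Because the RNA came from nuclei, the annotated class of the transcripts that took the reads was examined. Over the 28 genes at a mean of 1 TPM or more, coding transcripts held a median of 77.4% of a gene's TPM, against 75.4% over 9783 protein-coding genes at that level. Coding transcripts were under 50% of TPM in 4 of the 28 (14.3%), against 20.4% of those genes. In the second transcript tables, described further on, 10 of the 28 were under 50% (35.7%), against 33.4% of protein-coding genes. These values are near the background in each table, while the count itself depends on the table. By reads in place of TPM the medians were 94.1% and 89.4%. The 4 genes of the first tables were Cenpa, Gins2, Tyms and Cdk4. Of these 3 were also under 50% in the second tables, while Tyms was at 12.9% in the first and at 81.6% in the second. The other 7 under 50% in the second tables were Pcna, Cdt1, Rrm1, Top2a, Ccna2, Cdk2 and Rb1.

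Cenpa was the clearest case. Its transcript Cenpa-208 is annotated as a retained intron, 1 exon of 3806 bases from 30666960 to 30670765 at the 5′ end of the gene. It took 1493 reads in replicate 1 and 2815.95 in replicate 2, which is 66.7% and 77.8% of the reads of the gene, and 1858 and 4189 estimated counts in the second transcript tables. Coding transcripts held 12.3% of the reads in replicate 1 and 6.80% in replicate 2. The main coding transcript, Cenpa-205, had 275 and 244 reads, or 13.0 TPM in replicate 1 and 9.29 TPM in replicate 2. The level of 76.6 TPM given for Cenpa is therefore mostly not a level of its coding mRNA. The next gene upstream on the same strand, Slc35f6, lies 7047 bases away and had 4621 and 3956 reads; whether its transcription adds reads to Cenpa was not tested.

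Gins2, Cdk4 and Cdk2 also had much of their signal on retained-intron transcripts. In Gins2 these held 56.7% of the reads in replicate 1 and 85.7% in replicate 2, but 1.58% and 65.5% of the counts in the second tables, so the share in replicate 1 rests on the table. In Cdk4 they held 35.9% and 49.7% of the reads, and 41.8% and 71.2% of the TPM. The higher TPM of Cdk4 in replicate 2 came with a retained-intron transcript of 468 bases, Cdk4-209, which had 0 reads in replicate 1 and 57.2 in replicate 2. In Cdk2 they held 58.2% of the reads in replicate 1 and 43.7% in replicate 2. Mki67, Cdkn1b, Cdkn2c, E2f1, Birc5, Plk1, Ccnb2 and Mcm4 were among the genes with all of their reads on coding transcripts in the first transcript tables. Mki67-201, with 14 exons and a length of 10061 bases, took 6886 reads in replicate 1 and 2912 in replicate 2.

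**Figure D3:**
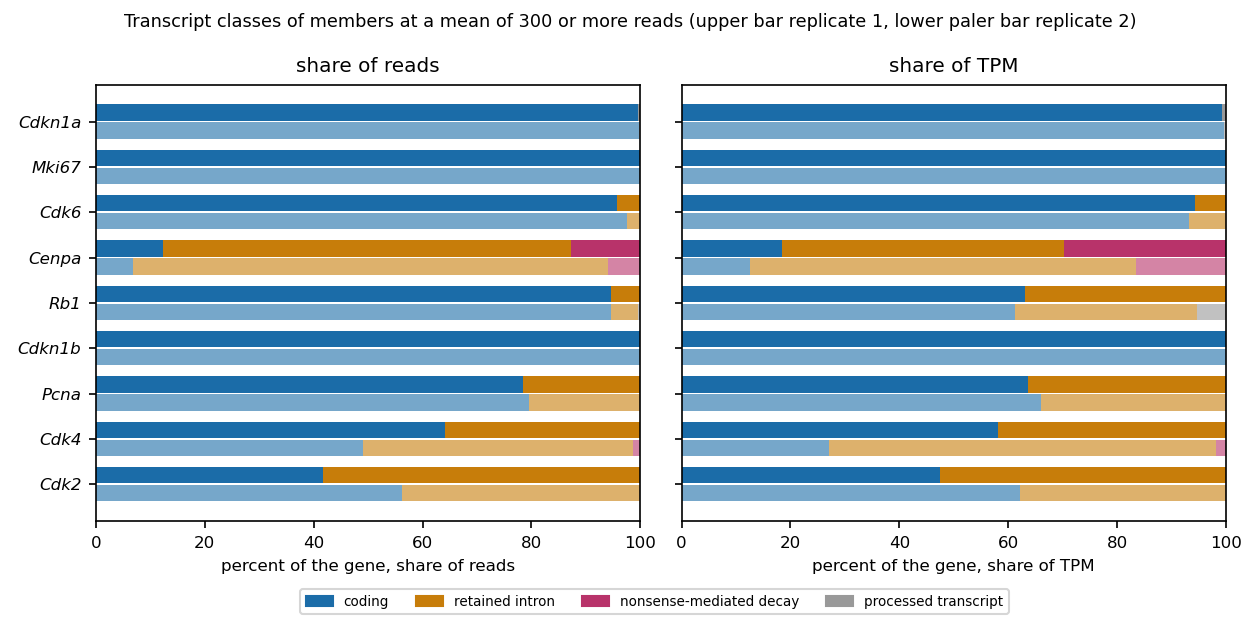
Share of a gene's reads (left) and of its TPM (right), in percent, by annotated transcript class, for the 9 genes at a mean of 300 reads or more; the upper bar of each pair is replicate 1 and the lower, paler bar replicate 2. Retained-intron transcripts hold 74.9% and 87.2% of the reads of Cenpa, and none of those of Mki67.

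Cdk6 shows how a short transcript moves a level. In reads it was equal between the libraries, with 3858.53 in replicate 1 and 3705.62 in replicate 2, yet its TPM was 2.63-fold higher in replicate 1. Its long transcript Cdk6-202, of 11525 bases, took 76.7% of the reads in replicate 1 and 91.2% in replicate 2, and had nearly the same level in both, 15.3 and 14.3 TPM. The rest of the TPM came largely from Cdk6-203 and Cdk6-205, of 697 and 425 bases. These 2 short transcripts held 349 reads in replicate 1 and 101 in replicate 2, or 9.06% and 2.72% of the reads, but 63.8% and 40.2% of the TPM. The effective length used for the gene was 2657 bases in replicate 1 and 5504 in replicate 2. Rb1 was similar in kind but not in effect: its 2 short retained-intron transcripts held 5.46% and 5.07% of the reads and 36.9% and 33.5% of the TPM, close to equal in both libraries.

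**Figure D4:**
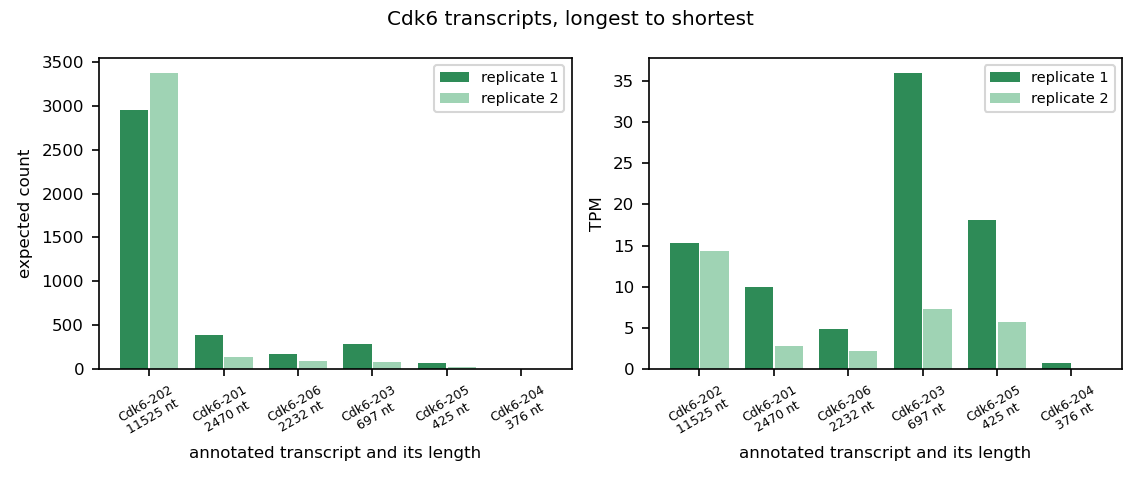
Expected counts (left) and TPM (right) of the 6 annotated Cdk6 transcripts, ordered from the longest to the shortest, in replicate 1 (dark) and replicate 2 (pale). The longest transcript holds most reads at 15.3 and 14.3 TPM, and the 697-base transcript has the highest TPM in replicate 1, 36.02.

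A second count for each transcript was deposited, which the accompanying text files list as derived directly from the reads. Summed per gene it was a median of 1.49 times the first over protein-coding genes, and 38 of the 40 genes had a mean of 10 counts or more. Relative to that median, 3 of the 38 were more than 3-fold apart (7.89%), against 4.66% of 11344 protein-coding genes, which for so few genes is near the background. Tyms had 36 expected counts in replicate 1 and 42 in replicate 2, but 434 and 542 in the second tables. Birc5 had 31 and 29, but 287 and 251. Gins2 went the other way, with 161.5 and 147.76, but 68.4 and 46.3. Cdk1 had 16 and 50, but 119 and 136. Genes with many reads were closer: Mki67 had 8160 and 4534 in the second tables, and Cdkn1a 11965 and 15638. The levels of Tyms, Birc5, Gins2 and Cdk1 are accordingly uncertain. As a level, the second tables gave Cdkn1a a mean of 167 TPM and Cenpa one of 36.9 TPM, both under the values of the gene tables, and Cdkn1a was again the highest of the 40.

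**Figure D5:**
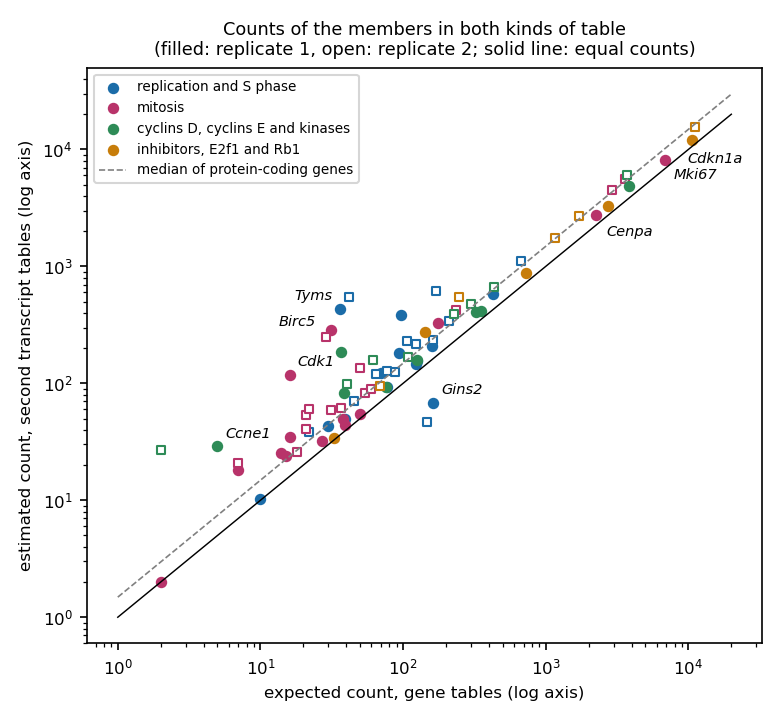
Count of each of the 40 genes in the second transcript tables against the gene tables (both log axes), filled for replicate 1 and open for replicate 2; the solid line marks equal counts and the dashed line the median of protein-coding genes, 1.49-fold. Tyms and Birc5 lie above the dashed line and Gins2 below it.

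Near copies and overlapping genes limit some counts. Of the 40 genes, 9 share a stretch of at least 200 bases at 95% identity or more with another annotated gene. Tyms shares such a stretch with 18 other genes, among them Map3k2, which had 2861 reads in replicate 1 and 2461 in replicate 2. Ccnb1 has 4 pseudogenes of this kind, all with 0 reads in both libraries, and Pcna has 1, with 1.16 and 1.15 reads. Another gene overlaps 18 of the 40, on the opposite strand in 16. No source used here says whether counting was by strand, so the reads of such pairs could be mixed. For Cdkn1a the partner is AC167363.2, with 3957.3 reads in replicate 1 and 1987.04 in replicate 2, and for Mki67 it is Gm45240, with 127 and 92. Rb1 overlaps Lpar6 (2193 and 2996 reads) and Rcbtb2 (1968 and 1888.63 reads). Mcm7, with 39 and 77 reads, overlaps Ap4m1 on the opposite strand, which had 586.94 and 454.84 reads. Gins2 overlaps Gm20388 on the opposite strand, which had 241.8 and 629.82 reads, and Cdt1 overlaps it on the same strand.

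Wider lists of the same pathways held several higher genes. Of 46 other genes of replication and S-phase repair, 29 reached the limit (63%, against 42.4% of protein-coding genes), and the median was 1.74 TPM. A ratio beyond 2-fold could be called only at a mean of 50 counts or more. Of 29 such genes here 0 were called, against 3.62% of 10444 genes for higher in replicate 1 and 4.76% for higher in replicate 2. For so few genes 0 is not far from these shares. Rfc2, a subunit of the clamp loader, was highest, with 51.9 TPM in replicate 1 and 32.0 TPM in replicate 2. The origin recognition genes Orc3 and Orc4 followed at 25.3 ± 7.17 and 25.1 ± 4.92 TPM (SD, n = 2). Of 38 other genes of mitosis and cytokinesis, 16 reached the limit (42.1%), and the median was 1.08 TPM. Incenp, the scaffold of the chromosomal passenger complex, had 19.8 TPM in replicate 1 and 14.8 TPM in replicate 2, the condensin gene Smc4 had 16.9 and 11.1 TPM, and Kif23, a motor of cytokinesis, had 9.19 and 10.1 TPM. Of the 19 at a mean of 50 counts or more, 1 was beyond 2-fold. It was Cenpf, a kinetochore protein, with 36 reads in replicate 1 and 148 in replicate 2 (log2 ratio -2.10).

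Regulators around RB1 had a higher median than the other wider lists of the cycle. Of 16 other E2F, pocket protein and DREAM complex genes, 13 reached the limit (81.2%, against 42.4% of protein-coding genes), and the median was 4.47 TPM. Of the 13 at a mean of 50 counts or more, 0 were beyond 2-fold. Rbl2, the pocket protein p130 of resting cells, had 13.5 TPM in replicate 1 and 16.1 TPM in replicate 2. Tfdp1, the partner of E2F factors, had 13.4 and 10.1 TPM, and the DREAM subunit gene Lin37 had 6.55 and 7.06 TPM. Of 17 other cyclins, kinases and inhibitors, 9 reached the limit (52.9%, against the same 42.4%), and the median was 2.12 TPM. Of the 11 at a mean of 50 counts or more, 0 were beyond 2-fold. For so few genes, 0 in either list is not far from the shares of 3.62% and 4.76% over 10444 genes. The highest was Cdk9, at 123 TPM in replicate 1 and 63.3 TPM in replicate 2, a kinase of transcription elongation and not of the cell cycle. Ccng2 and Fbxw7 followed at 17.8 ± 3.35 and 16.6 ± 6.14 TPM. The inhibitor gene Cdkn2a had 0 reads in both libraries, which allows up to 3 counts in each.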

How the data were processed

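Total RNA was measured in 2 libraries of 1 group. Values refer to mm10 and GENCODE M21, per the text files deposited beside them. Neither the tools nor the use of strand is named in these sources. The authors deposited gene tables with expected counts, TPM and FPKM per the file headers; FPKM was not used. Per the file headers, the authors' first transcript tables split each gene's TPM over its transcripts in percent. The lower and upper TPM bounds are deposited too (the upper one treated as a score), and their level is not stated. The authors' second transcript tables give estimated counts and TPM.

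Entries that name no gene held 1.19% of the counts in replicate 1 and 0.213% in replicate 2 and were left out. Expected counts were rounded and scaled by TMM over all genes in edgeR 4.0.16 (R 4.3.3); DESeq2 1.42.0 supplied other size factors as an alternative. A gene counted as beyond 2-fold at a mean of at least 50 counts, a ratio above 2 and bounds that did not overlap after scaling. Intervals of ratios are 95% exact binomial counting intervals. Copies were found with blastn 2.17.0. The scripts were tested on simulated data. The simulated counts for the ratios had less spread than these libraries, and the bounds were not part of that test. It therefore does not show how the 2-fold call behaves at the spread of these data.

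All 40 genes are named, and of the wider lists the 3 highest by mean TPM and every gene beyond 2-fold. Cdkn2a, Eda2r, Cd34, Elane, Map3k2 and the overlapping or neighbouring genes were named after their values were seen. The members, the lists, the motifs and the settings were chosen with earlier results of these data known.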

Additional observations from a re-analysis of the deposited data

How the results depend on the processing

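The count of detected genes, 24 of 40 at 1 TPM, depended on the limit. It was 36 at a limit of 0.5 TPM and 19 at a limit of 2 TPM. Posterior mean TPM gave 33, and levels from the second tables gave a count of 22. It was 27 without replicate 1 and 26 without replicate 2. Asking for 10 reads in each library in place of TPM gave 37. The share of 42.4% of protein-coding genes applies to the limit of 1 TPM in both libraries and not to these other settings. Rescaled over protein-coding genes, the median levels were 8.66 TPM (replication), 3.60 (mitosis), 10.6 (cyclins and kinases) and 48.9 (inhibitors, E2f1 and Rb1). In the second tables they were 1.21, 0.69, 1.60 and 6.24 TPM. With genes of at least 10 counts, the mitotic median was 1.05 and that of cyclins and kinases 3.33 TPM. With either library left out, the replication median was 2.10 to 2.35 TPM and the mitotic one 0.96 to 0.965 TPM.

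In place of 3, there were 5 genes beyond 2-fold at 10 counts, without a filter and in the second tables. The shares of 3.62% and 4.76% of all genes apply at a mean of 50 counts in the gene tables and not to these settings. The rise to 5 is thus not read as a result about these genes. The median log2 ratio of replication genes was 0.17 by TPM. That of mitotic genes was 0.032 by TPM, -0.48 at 10 counts, -0.50 without a filter, -0.16 in the second tables and -0.48 without Mki67, a setting chosen after seeing the data. Of the 40 ratios, 10 changed sign by TPM, 4 in the second tables, 1 with DESeq2 factors and 0 by library size. The coding share of 77.4% was 64.9% over genes at 5 TPM or more, 76.6% to 81.1% with either library left out, and 94.1% by reads, also chosen after seeing the data, as was the ratio without the bounds, which again gave 3 genes. Also chosen after seeing the data, the second tables put 10 genes in place of 4 under a coding share of 50%, and against genes of like depth 18 of 24 genes again leaned to replicate 2. The cause of these shifts was not tested.

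No paired analysis was possible because there is 1 group. Depth limits the 16 of the 40 genes under a mean of 50 counts, whose ratios have wide counting intervals.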

Other observations

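Targets of p53 other than Cdkn1a were mostly expressed in these macrophages. Of 15 such genes, 13 reached 1 TPM in both libraries (86.7%, against 42.4% of protein-coding genes), and the median was 9.66 TPM. Mdm2, the ubiquitin ligase that limits p53, was highest, with 318 TPM in replicate 1 and 107 TPM in replicate 2, on 7394 and 3511 reads. Btg2, an antiproliferative gene that is also an immediate early gene, had 170 TPM in replicate 1 and 219 TPM in replicate 2. Bax, which permeabilises mitochondria in apoptosis, had 52.9 and 30.0 TPM.

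Of the 13 genes of this list at a mean of 50 counts or more, 5 were higher in replicate 1 and 8 in replicate 2. Beyond 2-fold were 1 on the side of replicate 1 and 2 on that of replicate 2. The shares over 10444 genes were 3.62% and 4.76%, and such small counts do not set the list apart. Mdm2 was beyond 2-fold higher in replicate 1 (log2 ratio 1.01). Ccng1 and Trp53inp1 were beyond 2-fold higher in replicate 2, at -1.13 on 355 and 741 reads and at -1.02 on 617 and 1195 reads. Eda2r had 2 reads in each library.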
